A study of Mus musculus with 10 samples.

Results

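In nephron progenitors of the mouse embryonic kidney, 359 genomic regions carried a Six2 peak in both Six2 libraries and a β-catenin peak in at least 1 of the β-catenin libraries. They were found by merging the peaks of all 4 chromatin immunoprecipitation (ChIP-seq) lists wherever peaks shared at least 1 bp, which gave 7666 regions in all. Of these, 1349 had a peak from both Six2 libraries and are called reproducible Six2 regions. The 359 shared regions made up 26.6% of them and 4.68% of all merged regions, and 126 (9.34%) had a peak in all 4 libraries. These 126 are called the core. Another 210 shared regions had β-catenin replicate 1 only, and 23 had β-catenin replicate 2 only. The regions were chosen by the peak calls themselves, so these counts and the places of the regions in the lists are descriptions and support nothing by themselves.

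Six2 is a homeodomain transcription factor that holds nephron progenitors in their self-renewing state. β-catenin is the co-activator of canonical Wnt signalling. It has no DNA-binding domain of its own and is brought to chromatin by TCF/LEF factors. In the cap mesenchyme, the layer of progenitors around each ureteric bud tip, Wnt signalling both supports the progenitors and starts their conversion to epithelium.

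The cells were sorted at E16.5 from embryonic kidneys of mixed strain background positive for Six2GFPcre, a bacterial artificial chromosome (BAC) transgene that marks Six2-expressing cells, and all groups carried it. Six2 was precipitated from freshly sorted cells in 2 libraries. β-catenin was precipitated in 2 libraries from sorted cells that had been pelleted and kept for 24 h in serum-containing medium with 4 µM BIO, a GSK3 inhibitor that stabilises β-catenin, dissolved in DMSO. The series also has 4 input libraries and 2 rabbit IgG mock libraries, which were not analysed here, and it has no β-catenin library from fresh or vehicle-treated cells. Antibody and cell state changed together and cannot be told apart. Whether a shared region reflects binding or a place that gives signal in any ChIP library was not tested. Peak lists hold no expression values, so the cell type could not be checked against marker genes.

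The lists held 5645 and 1622 peaks for Six2 replicates 1 and 2, and 1873 and 1208 for β-catenin replicates 1 and 2. They give positions only, so the read depth behind a peak is unknown. Peaks in early rows were recovered by the second library of their antibody more often than peaks in late rows. In the first decile of the lists the recovery was 76.5%, 98.2%, 86.2% and 91.7% in the order above, and in the last decile it was 4.79%, 74.7%, 4.81% and 20.8%. The fall was not even, since the ninth decile of Six2 replicate 2 had 68.5%, below its last. What the lists are ordered by is not given in the sources used here. Row number is used below as a rank on the ground of this recovery alone. It is scaled as a percent of the list length where lists are set side by side.

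The shared regions were concentrated near the head of the Six2 lists. Their median place was 9.21% of the way down the list of Six2 replicate 1 and 27.5% down that of replicate 2. The 990 reproducible Six2 regions without a β-catenin peak had medians of 23.9% and 50.9%. Of the first 100 peaks, 49 in Six2 replicate 1 and 61 in replicate 2 lay in shared regions, against 6.45% and 22.2% of all peaks in those lists. In the last decile of the lists, 2 of 564 peaks and 15 of 162 peaks did so. Shared regions thus ran through almost the whole of both Six2 lists but thinned out towards their ends. A shared region needs a peak of the other Six2 library, and such recovery also fell towards the ends. Part of the thinning, and of the contrast with all peaks, therefore follows from the rule. Among peaks so recovered, shared regions held 191 of 432 in the first decile of replicate 1 and 2 of 27 in its last. In replicate 2 they held 90 of 160 and 15 of 121.

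In the β-catenin lists the shared regions were spread more evenly. Shared regions held 28 of the first 100 peaks of β-catenin replicate 1 and 18 of the first 100 of replicate 2, and 18.0% and 12.5% of all their peaks. The core had a median place of 17.2% in β-catenin replicate 1 and 33.7% in replicate 2. The 291 regions called in both β-catenin libraries and in no Six2 library had 24.3% and 31.7%. In one β-catenin library the core thus lay nearer the head than these regions, and in the other slightly further from it. Shared regions found by a single β-catenin library lay further down, at a median of 49.1% for the 210 of replicate 1 and 74.5% for the 23 of replicate 2.

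**Figure D1:**
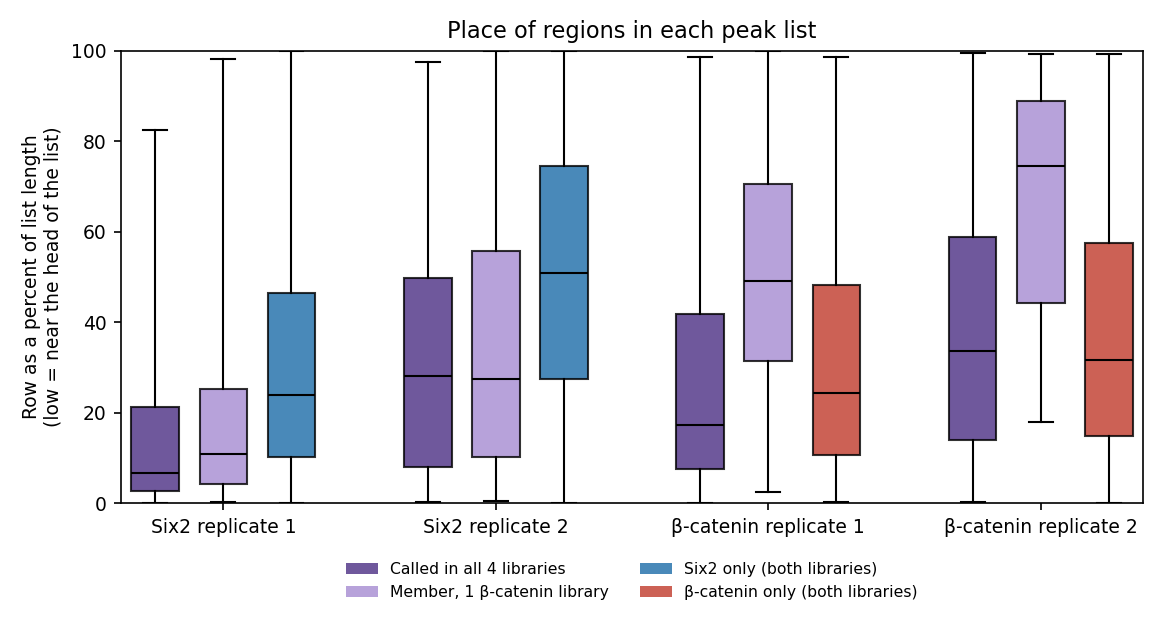
Place of regions in each of the 4 peak lists, as row number in percent of list length on the vertical axis (low values are near the head). Boxes show the median and quartiles and whiskers the full range for the core, for shared regions with 1 β-catenin library, for reproducible Six2 regions without β-catenin and for reproducible β-catenin regions without Six2. In both Six2 lists the shared regions sit below the Six2 regions without β-catenin, with medians of 6.62% and 28.1% for the core against 23.9% and 50.9%.

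The order of the core regions was more alike between libraries of the same antibody than between antibodies. Cell state changed with the antibody, so the part of each in this cannot be told apart. Across the 126 core regions, scaled rows of the Six2 libraries had a Spearman's rho of 0.71 (Pearson's r 0.62), and those of the β-catenin libraries 0.55 (r 0.37). Between antibodies rho ran from 0.07 to 0.25 over the 4 pairs of libraries. These are descriptions across regions, which share libraries and peak calling and are not independent replicates. The place of a core region in the lists of 1 antibody thus told little about its place in the lists of the other.

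The leading core regions, taken by the mean scaled row over the 4 libraries, show how closely the peaks lay on each other. The first was at chromosome 13, 94853202 to 94853454 (mm9). It stood at rows 133 and 91 for Six2 and 17 and 14 for β-catenin, and its 4 peaks had 114 bp in common, from 94853232 to 94853345. The second, at chromosome 11, 96270032 to 96270285, was row 3 in both Six2 lists and row 97 and 63 in the β-catenin lists, with 90 bp in common from 96270140 to 96270229. The third, at chromosome 1, 92194328 to 92194580, had rows 284 and 108 for Six2 and 25 and 8 for β-catenin, and 87 bp in common. Both β-catenin lists placed the regions on chromosomes 13 and 1 nearer their heads than either Six2 list did, and the one on chromosome 11 shows the opposite.

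The fourth region, at chromosome 14, 77312219 to 77312503, had 86 bp in common to all 4 peaks, and the mean midpoints of the antibodies differed by 0.25 bp. The fifth, at chromosome 8, 91936033 to 91936284, had 93 bp in common, with the antibodies 64.3 bp apart. The sixth, at chromosome 4, 136773188 to 136773353, was only 166 bp wide, and its β-catenin replicate 1 peak, row 1 of that list, lay wholly inside the other 3 peaks, so that 125 bp were common to all. The Six2 midpoints there differed by 8.0 bp, the β-catenin midpoints by 7.0 bp, and the antibodies by 7.5 bp. It was the narrowest of the 10, and all 4 libraries put their peak on the same spot.

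The remaining leading regions were more spread out. At chromosome 6, 21950157 to 21950429, only 13 bp were common to the 4 peaks, with both β-catenin peaks centred on the same side of the Six2 peaks and the antibodies 80.8 bp apart. At chromosome 14, 59135250 to 59135796, 54 bp were common and the antibodies were 149.3 bp apart. At chromosome 1, 167668935 to 167669436, 134 bp were common and the distance was 102.0 bp. At chromosome 10, 123119791 to 123120150, 127 bp were common and the distance was 10.0 bp. There the Six2 midpoints were 80.5 bp apart and the β-catenin midpoints 5.5 bp. In the regions of 547 and 502 bp, on chromosomes 14 and 1, the β-catenin replicate 2 peak was 460 and 371 bp wide and reached well beyond the other peaks. Part of the distance there thus goes with 1 wide peak of 1 library, and its share in the distance was not tested.

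**Figure D2:**
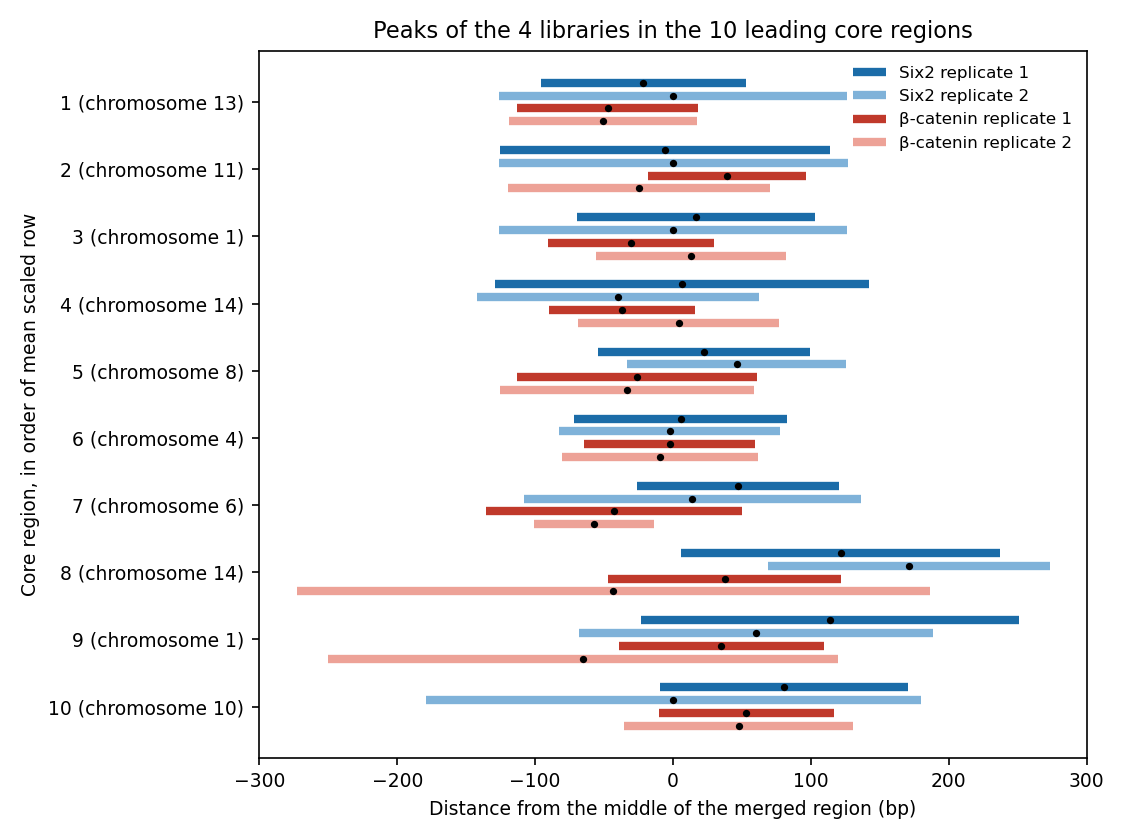
Extent of the peaks of all 4 libraries in the 10 leading core regions, as distance in bp from the middle of the merged region. Bars are peaks and black dots their midpoints, with Six2 in blue and β-catenin in red. In each of the 10 regions the 4 peaks have bases in common, from 13 bp in the seventh region to 134 bp in the ninth.

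Across the whole core, peaks of different antibodies lay nearly as close as peaks of the same antibody. Peaks had to overlap to form a region, so the rule itself limits these distances and favours common bases. The values are descriptions only. All 4 peaks had at least 1 base in common in 112 of 126 regions (88.9%, 95% exact interval 82.1 to 93.8%), with a median of 77 bp in those. Midpoints of the Six2 peaks were a median of 36.8 bp apart, and those of the β-catenin peaks 31.8 bp. For peaks of different antibodies the median was 43.5 bp and 46.0 bp for Six2 replicate 1 with β-catenin replicates 1 and 2, and 44.8 bp and 54.0 bp for Six2 replicate 2. The 4 medians between antibodies were thus all above both medians within an antibody, and the difference was not tested.

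Quartiles of these distances overlapped widely, from 15.6 to 71.4 bp for the Six2 pair and from 24.5 to 97.9 bp for Six2 replicate 2 with β-catenin replicate 2. The mean positions of the antibodies were further apart than both pairs of libraries in 42 of 126 core regions. Over all shared regions, the midpoint of the β-catenin peak fell between the outer ends of the Six2 peaks in 317 of 336 cases (94.3%) for replicate 1 and 137 of 149 (91.9%) for replicate 2. A shared region needs overlapping peaks, so high shares follow in part from the rule. The fragments were gel-purified at 250 to 500 bp, which is wider than these distances.

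**Figure D3:**
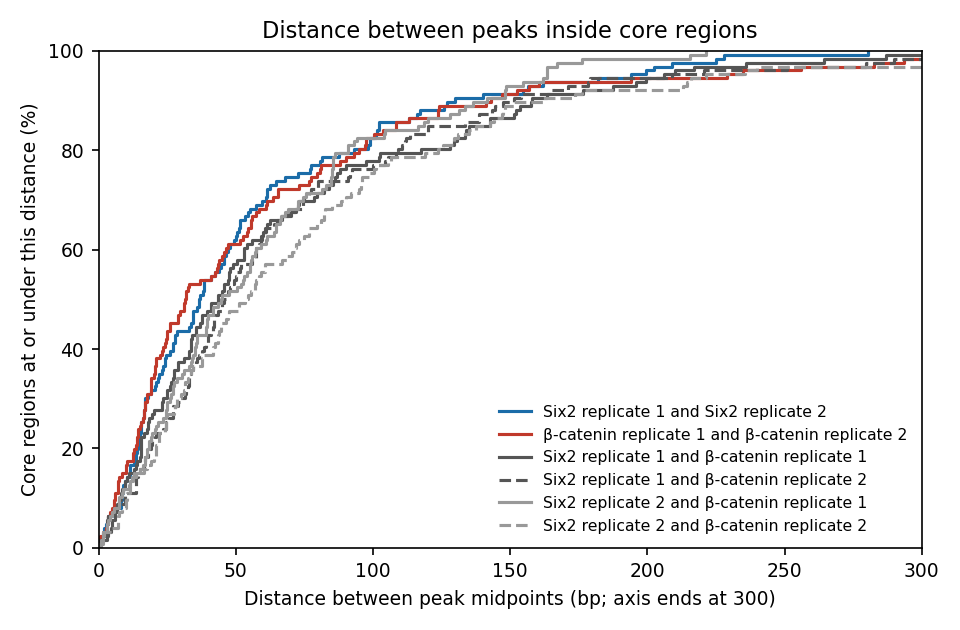
Share of the 126 core regions (vertical axis, percent) in which the peak midpoints of 2 libraries lie at or under a given distance (horizontal axis, bp). Blue and red lines are pairs of the same antibody and grey lines pairs of different antibodies. At 50 bp the lines stand at 62.7% for Six2 and 61.1% for β-catenin, and at 47.6 to 57.1% between antibodies.

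In 3 core regions, looked for after the distances were seen, the libraries of each antibody lay within 50 bp of each other while the antibodies were over 100 bp apart. At chromosome 13, 90800620 to 90801042, the Six2 and β-catenin midpoints were 187.8 bp apart, with the Six2 peaks 22.0 bp and the β-catenin peaks 45.5 bp from each other. That region was row 26 of Six2 replicate 2, and no base was common to its 4 peaks. At chromosome 13, 60201126 to 60201558, the antibodies were 161.8 bp apart. At chromosome 4, 97773504 to 97773908, they were 107.3 bp apart. In the first of these regions the largest overlap of a Six2 with a β-catenin peak was 7 bp. In the last, all 4 peaks had 30 bp in common.

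Some core regions stood much nearer the head of the lists of 1 antibody than of the other. The largest gap towards β-catenin was at chromosome 1, 130718706 to 130718922, at rows 90 and 120 for β-catenin and 2503 and 1433 for Six2. The next was at chromosome 2, 152992756 to 152993028, at rows 29 and 31 for β-catenin and 4103 and 608 for Six2. The region at chromosome 2, 174487025 to 174487573, had β-catenin rows 19 and 29 and Six2 rows 1218 and 1264. The region at chromosome 4, 97773504 to 97773908, had β-catenin rows 443 and 365 and Six2 rows 4653 and 1240. That at chromosome 15, 12501021 to 12501237, had β-catenin rows 568 and 505 and Six2 rows 4535 and 1544, and so was near the head of no list. By scaled row, both Six2 libraries placed each of these 5 regions further down than either β-catenin library did.

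In the opposite direction, the largest gap was at chromosome 12, 8923910 to 8924134, with Six2 rows 725 and 213 and β-catenin rows 1718 and 918. The region at chromosome 6, 95681747 to 95682194, was row 364 and row 5 for Six2, and row 1174 and 897 for β-catenin. The region at chromosome 7, 104188264 to 104188503, had Six2 rows 196 and 82 and β-catenin rows 1229 and 684. The remaining 2 were on chromosome 1. The one at 164212154 to 164212553 had Six2 rows 1888 and 345 and β-catenin rows 1537 and 1087. The one at 136888612 to 136888910 had Six2 rows 54 and 254, and its β-catenin rows of 542 and 1185 differed widely between the libraries.

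For the next counts, regions were formed from 3 lists alone and then looked up in the fourth, which had no part in forming them. Of 148 regions with both Six2 libraries and β-catenin replicate 2, 125 overlapped a peak of β-catenin replicate 1 (84.5%, 95% exact interval 77.6 to 89.9%). Of 871 regions with β-catenin replicate 2 and no Six2 peak, 299 did (34.3%, 31.2 to 37.6%). The gap was there in every quartile of the replicate 2 list, from 97.9% against 72.9% in the first to 59.3% against 16.3% in the last. In the same part of the list, regions with both Six2 libraries thus met a β-catenin replicate 1 peak more often than regions without Six2. Regions with only 1 Six2 library are in neither group.

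The same look-up for β-catenin replicate 2 gave a smaller gap. It held 125 of 335 regions with both Six2 libraries and β-catenin replicate 1 (37.3%, 32.1 to 42.7%), and 295 of 1187 regions with replicate 1 and no Six2 peak (24.9%, 22.4 to 27.4%). By quartile of the replicate 1 list the shares were 68.5% against 61.2%, 27.3% against 24.7%, 21.4% against 14.8% and 15.5% against 7.14%, and the intervals overlapped in each quartile. The difference between the 2 β-catenin libraries in this respect was not tested.

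With all parts of the list pooled, Six2 regions were also met by the other Six2 library more often where β-catenin was called. Six2 replicate 2 held 124 of 252 regions with Six2 replicate 1 and both β-catenin libraries (49.2%, 42.9 to 55.6%), and 1004 of 4914 with Six2 replicate 1 and no β-catenin peak (20.4%, 19.3 to 21.6%). In the first quartile of the replicate 1 list the shares were 68.8% and 49.8%. In the second they were 31.7% and 20.9% with overlapping intervals, in the third 10.7% (3 of 28 regions) and 11.1%, and in the fourth 21.7% (5 of 23 regions) and 5.69%. The intervals were thus apart in the first and last parts of the replicate 1 list and not in between. Here the regions with β-catenin were merged from 3 lists, and those without it came from the Six2 list alone. The former were thus larger targets for a shared base, and the effect of this was not tested.

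Six2 replicate 1 held 125 of 135 such regions (92.6%, 86.8 to 96.4%), against 994 of 1239 without β-catenin (80.2%, 77.9 to 82.4%). By quartile of the replicate 2 list these counts were 59 of 59 regions against 224 of 238, 35 of 37 against 265 of 309, 19 of 23 against 261 of 345 and 12 of 16 against 244 of 347, with overlapping intervals in each quartile. The gap of this look-up was therefore not clear within any one part of the list. None of these shares was tested across libraries, and intervals treat regions as independent and cover counting error only.

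Shared regions had other β-catenin peaks nearby more often than Six2 regions without β-catenin did. Another region with a β-catenin peak lay within 50 kb of 135 of the 359 shared regions (37.6%, 32.6 to 42.8%) and of 59 of the 126 core regions (46.8%, 37.9 to 55.9%). It did so for 178 of the 990 Six2 regions without β-catenin (18.0%, 15.6 to 20.5%). When only neighbours between 2 and 50 kb away counted, so that split peaks of 1 site drop out, the shares were 32.0%, 38.9% and 16.6%. Counting only neighbours with β-catenin and no Six2 peak, they were 21.7%, 29.4% and 10.8%.

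The place in the Six2 lists moves with sharing, so the neighbours were also counted by quartile of the Six2 order. In the first quartile, 69 of 163 shared regions (42.3%, 34.6 to 50.3%) and 28 of 175 Six2 regions without β-catenin (16.0%, 10.9 to 22.3%) had such a neighbour. In the second quartile the shares were 35.6% (25.6 to 46.6%) and 17.6% (13.1 to 22.9%). In the third they were 29.2% (18.6 to 41.8%) and 17.3% (13.0 to 22.3%). In the last quartile the shares were 36.4% (22.4 to 52.2%) and 20.1% (15.7 to 25.2%). The intervals overlapped in the third and last quartiles. The 210 shared regions called by β-catenin replicate 1 alone allow a count in the other library. A β-catenin replicate 2 peak lay within 50 kb of 35 of them (16.7%, 11.9 to 22.4%) and of 95 of the 990 Six2 regions without β-catenin (9.60%, 7.83 to 11.6%). Between 2 and 50 kb away the shares were 14.8% (10.3 to 20.3%) and 8.99% (7.28 to 10.9%), with overlapping intervals.

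**Figure D4:**
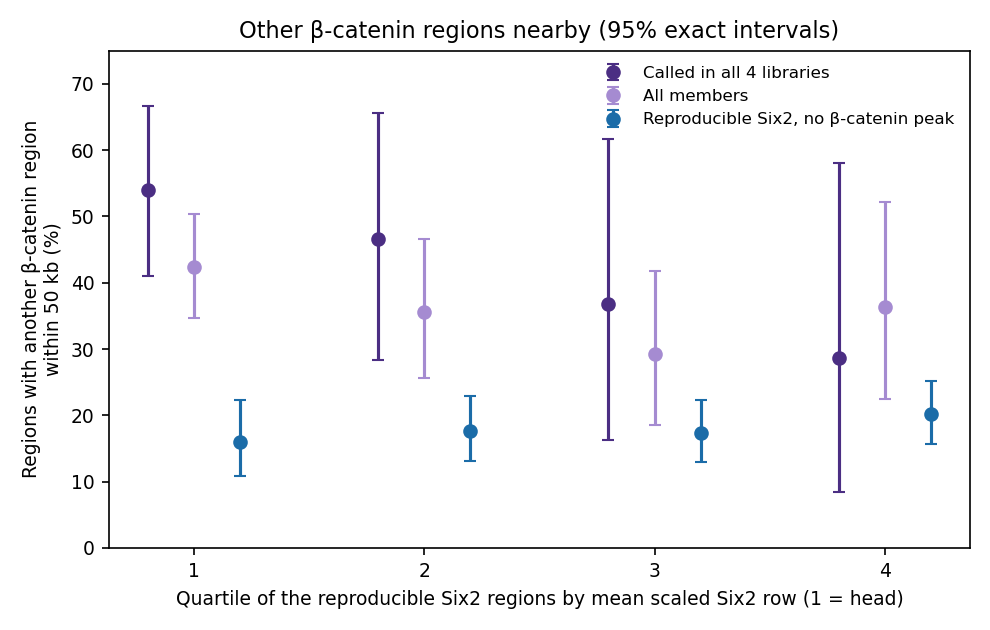
Share of regions with another β-catenin region within 50 kb (vertical axis, percent), by quartile of the 1349 reproducible Six2 regions in the order of their mean scaled Six2 row (horizontal axis). Points are shares and bars 95% exact intervals. All shared regions range from 29.2 to 42.3%, and reproducible Six2 regions without β-catenin from 16.0 to 20.1%.

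Reproducible Six2 regions were also denser around shared regions. Another reproducible Six2 region lay within 50 kb of 92 of 359 shared regions (25.6%, 21.2 to 30.5%) and of 165 of 990 Six2 regions without β-catenin (16.7%, 14.4 to 19.1%). At the head of the Six2 order (first quartile) these shares were 25.2% and 14.9% with overlapping intervals. In the second quartile they were 33.3% (23.6 to 44.3%) and 14.8% (10.6 to 19.8%), with intervals apart. The third quartile had 16.9% in both. In the last, 11 of 44 shared regions and 56 of 293 without β-catenin had such a neighbour, with overlapping intervals. The median distance to the nearest other reproducible Six2 region was 233 kb for shared regions and 387 kb for those without β-catenin.

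Most shared regions stood alone among their kind. At a limit of 50 kb, 44 of the 359 lay in 22 pairs and no group had 3 members. Within 10 kb there were 12 pairs. The closest lay 300 bp apart at chromosome 1, 16283426 to 16283677 and 16283978 to 16284246. The first of these had Six2 rows 101 and 171 and β-catenin row 227 in replicate 1 only, and the second had Six2 rows 14 and 20 and β-catenin rows 452 and 188. At chromosome 7, 2 core regions at 76062438 to 76062963 and 76063746 to 76064185 were 782 bp apart, and β-catenin put the second at rows 59 and 77 and the first at rows 413 and 1203. Other pairs of core regions lay at chromosome 2, 11941244 to 11941615 and 11944819 to 11945605, and at chromosome 13, 98368941 to 98369337 and 98377436 to 98377697. A further pair of core regions was at chromosome 7, 78544241 to 78544615 and 78551022 to 78551762. The pair of core regions on chromosome 11 is described with its group below.

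With the limit at 100 kb, 2 larger groups appeared, named here after they were seen. The first spanned 176.0 kb of chromosome 11, from 96168249 to 96344251, with 5 shared regions. It includes the second leading core region and a further core region 830 bp before it, at 96268940 to 96269201, with Six2 rows 244 and 313 and β-catenin rows 501 and 1161. Shared regions at 96194821 to 96195063 and 96343983 to 96344251 had β-catenin replicate 1 only, and the one at 96168249 to 96168446 had replicate 2 only. Between them, at 96180626 to 96180790, lay a β-catenin site of rows 26 and 9 that Six2 replicate 1 called at row 481 and Six2 replicate 2 did not call. Sites near the head of the β-catenin lists and near the head of the Six2 lists thus lay in the same stretch, and the former missed the rule by 1 library.

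The other group spanned 131.1 kb of chromosome 12, from 12848719 to 12979831, with 3 shared regions. The first, at 12848719 to 12849435, was a core region with β-catenin rows 196 and 122 and Six2 rows 858 and 1034. The second, at 12939259 to 12939442, was row 47 and 336 for Six2 and row 353 for β-catenin replicate 1, and the third was at 12979384 to 12979831. The genes in these stretches are not named, since no gene annotation of mm9 was used here.

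**Figure D5:**
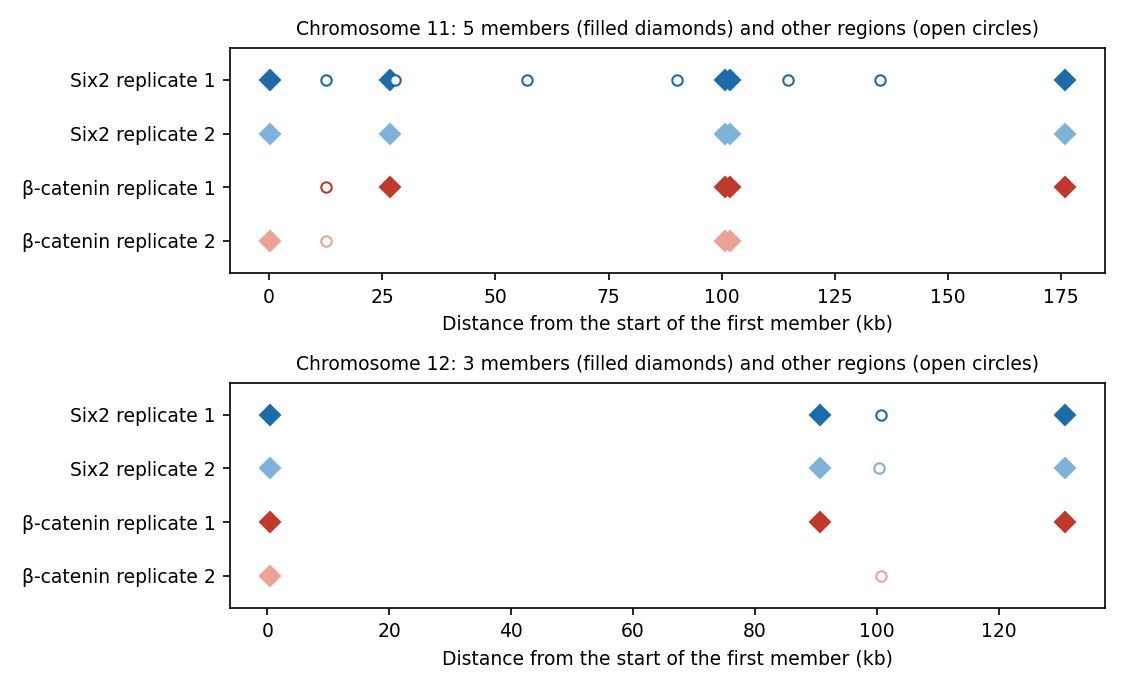
The 2 groups of 3 or more shared regions at a limit of 100 kb, as distance in kb from the start of the first shared region, with 1 line for each library. Filled diamonds are shared regions and open circles other merged regions of the same stretch. On chromosome 11 there are 5 shared regions among 11 regions, and on chromosome 12 there are 3 among 5.

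Shared regions were wider than other Six2 regions, which follows in part from merging the peaks of more libraries. Their median width was 282 bp (quartiles 229 and 386), against 241 bp for Six2 regions without β-catenin. Single peaks differed less. The median peak of Six2 replicate 1 was 166 bp wide in shared regions and 152 bp in those without β-catenin, and that of replicate 2 was 212 and 206 bp. β-catenin peaks of the core had medians of 143 bp in replicate 1 and 158.5 bp in replicate 2, and those of β-catenin regions without Six2 had 131.5 and 147 bp. The widest shared regions were at chromosome 12, 46715082 to 46715985 (904 bp), chromosome 2, 104863469 to 104864343 (875 bp), chromosome 13, 90310625 to 90311479 (855 bp), chromosome 10, 119857811 to 119858640 (830 bp), and chromosome 10, 125333227 to 125334030 (804 bp). Only the one at 119857811 was in the core.

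Shared regions were found on every autosome and on chromosome X, where there was 1 of 6 reproducible Six2 regions. Their share of the reproducible Six2 regions of an autosome ran from 3 of 31 on chromosome 19 (9.68%, 2.04 to 25.8%) to 18 of 48 on chromosome 15 (37.5%, 24.0 to 52.6%). Over all chromosomes, 126 of the 359 shared regions were in the core (35.1%). On single chromosomes the core held 12 of 20 shared regions on chromosome 13, 11 of 15 on chromosome 7, and 1 of 13 on chromosome 17. Others, such as chromosome 2 (11 of 33) and chromosome 9 (8 of 22), lay near the share over all. These are small counts given without intervals. These chromosomes were named after their values were seen, and no test was made.

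The rule has a threshold of 1 shared base, and few regions lay close to it. The largest overlap of a Six2 with a β-catenin peak had a median of 139 bp and was under 10 bp in 4 of 359 regions, the lowest being 2 bp at chromosome 18, 57545844 to 57546214. In 2 regions the Six2 peaks did not touch each other and were joined through a β-catenin peak. Just outside, a Six2 region at chromosome 5, 67791972 to 67792188, missed a β-catenin replicate 1 peak of row 1807 by 12 bp. Another at chromosome 4, 94223554 to 94223722, missed a replicate 2 peak of row 1153 by 46 bp. No other Six2 region without β-catenin had such a peak within 100 bp, and 7 of 990 had one within 1000 bp.

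The number of shared regions depended on the libraries. Without β-catenin replicate 1 there were 148, and without replicate 2 there were 335. With Six2 replicate 2 left out, so that replicate 1 alone stood for Six2, there were 730, and with Six2 replicate 1 left out there were 382. The core, asked of the 3 libraries left, counted 252 without Six2 replicate 2 and 335 without β-catenin replicate 2. When every list was shortened to its first 1208 peaks, a choice made after seeing the data, 94 shared regions had β-catenin replicate 1 only, 19 had replicate 2 only and 84 had both.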

How the data were processed

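Chromatin was immunoprecipitated from sorted mouse nephron progenitors, and DNA of 250 to 500 bp was gel-purified and amplified with 18 PCR cycles, per the labels' protocols. The deposited files are peak lists, 1 per library, with 3 columns (chromosome, start, end) of another kind than counts or signal. They hold no score, p-value or read count. The submitters' processing notes name mm9 and CASAVA 1.6. For the peak caller, its threshold and its control, the entry is: not given in the sources used here. Lists were read as BED intervals with Python 3.11.15, pandas 2.3.3 and scipy 1.17.1, and positions are printed 1-based. Replicates were numbered in accession order, and the labels do not say whether they came from separate sorts.

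Peaks sharing at least 1 bp were merged, and the merging was tested on simulated lists with planted regions. Where a library had several peaks in a region, the one of lowest row was used. Shares carry 95% exact (Clopper-Pearson) intervals. No test was run, since membership comes from the calls and antibody and cell state changed together. The members and lists were chosen with earlier results of these data known. Regions named are the 10 leading core regions by mean scaled row, the 5 most unequal in each direction, the 5 widest, those next to the threshold and groups of 3 or more; others are said to be named after their values were seen, including the close pairs. Planned motif counts, sequences and gene annotation need mm9 and were not run, because the tables used here are of GRCm38 and positions were not converted. Alternatives were midpoints within 100 bp, a reciprocal overlap of 50%, merging across gaps of 100 bp, the first 50% of each list, no chromosome X, other orders, other limits for groups, and leaving out each library. Equal list lengths and dropping peaks under 50 bp were added after seeing the data.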

Additional observations from a re-analysis of the deposited data

How the results depend on the processing

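The count of 359 shared regions fell to 203 when peaks had to overlap by 50% of both, to 158 when only the earlier 50% of every list was used, and to 197 with lists of equal length, the last chosen after seeing the data. The core of 126 was 57 and 53 under the first 2 of these. Shortened lists compare fewer peaks, and otherwise the cause was not tested. Midpoints within 100 bp, gaps of 100 bp, no chromosome X and no peaks under 50 bp kept both counts within 1.5 times. Leaving out 1 library gave 148 to 730 shared regions and 135 to 335 core regions. Groups within 10 kb numbered 12 in place of 22. Of the 10 leading regions, 10 led by mean row and 7 by median. The median width of shared regions stayed within 219.5 to 288.0 bp over 11 alternatives. Motif windows, repeat masking and distances to listed genes were not run. No paired analysis was possible because replicate numbers pair no samples. Depth is unknown, so weak sites missed by a list cannot be told from absent ones.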
